A study of Mus musculus with 32 samples.

Results

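The response to a brain injury was described within mice that carry human APOE4 in place of the mouse Apoe gene (targeted replacement APOE4+/+ on a C57BL/6 background). The comparison set 8 animals with traumatic brain injury (TBI) against 7 sham animals, 15 of the 32 animals of the series. Members were taken from the letters E4-T and E4-S in the animal titles together with the genotype label. Another APOE4 animal, E2073, was titled as sham but described as TBI and was left out. Per the labels' protocols, a 4.5 mm craniotomy was made over the left parietal cortex of every animal, so sham mice had anaesthesia and open skull too. TBI mice then received 1 controlled cortical impact with a 3.0 mm tip to a depth of 1.0 mm. At day 14 cortex and hippocampus from a coronal slice through the injury were frozen as 1 sample, the subcortical tissue having been removed, and RNA was sequenced. The labels give no age, and the letters Y and M or F in the titles are not spelled out. The 8 TBI animals held 4 with M (TBI 1 to 4) and 4 with F (TBI 5 to 8), and the 7 shams held 4 with M (sham 1 to 4) and 3 with F (sham 5 to 7).

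Apolipoprotein E carries cholesterol and other lipids between brain cells, is made mainly by astrocytes and microglia, and its APOE4 form is the best known common genetic risk factor for late-onset Alzheimer disease. Microglia, the resident macrophages of the brain, sense lipids and debris through the receptor TREM2, which signals through the adaptor TYROBP. After a contusion, microglia and astrocytes around the lesion change state for weeks, while neurons near it are lost or lower their activity.

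The authors deposited counts for 5582 genes that had been selected on injury, since the p-values listed beside them in the authors' deposited table end at 0.0502. Calls between TBI and sham are therefore not independent of that selection. Column totals over these genes ran from 2392498 to 7576048 counts in the 15 APOE4 animals, with 8 deep libraries of at least 4648345 and 7 shallow ones of at most 3595246. Both depths occurred in each group and with each title letter. TBI and sham animals differed by -0.05 in mean log2 column total (exact permutation test, 2-sided, p = 0.871). Animal numbers separate the libraries, and within each group every pair differed by more than sampling noise.

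At day 14 the injured tissue showed large rises in immune and glial genes and smaller falls in neuronal ones. Of 5217 tested genes 2896 passed (55.5%), 1816 higher (34.8%) and 1080 lower (20.7%) after injury, by edgeR's quasi-likelihood test at a Benjamini-Hochberg adjusted p under 0.05. At least 2-fold changes were found in 351 rises (6.73%) and 4 falls (0.0767%), and 69 genes rose at least 4-fold (1.32%). In 523 genes (10%) all 8 TBI animals lay above every sham, and in 71 (1.36%) all lay below. The balance of rises and falls depends on scaling, because the median gene stood at a log2 difference of 0.08 here, 0.14 with column totals alone (2140 higher, 603 lower) and 0.04 with DESeq2 (1565 higher, 1648 lower). The balance also turned with the disputed E2073, to 1142 higher and 2052 lower with it as sham (median -0.06), against 1231 higher and 875 lower with it as TBI. Within the deep libraries alone 989 genes passed (748 higher, 241 lower), and within the shallow ones 1212 (699 higher, 513 lower).

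**Figure D1:**
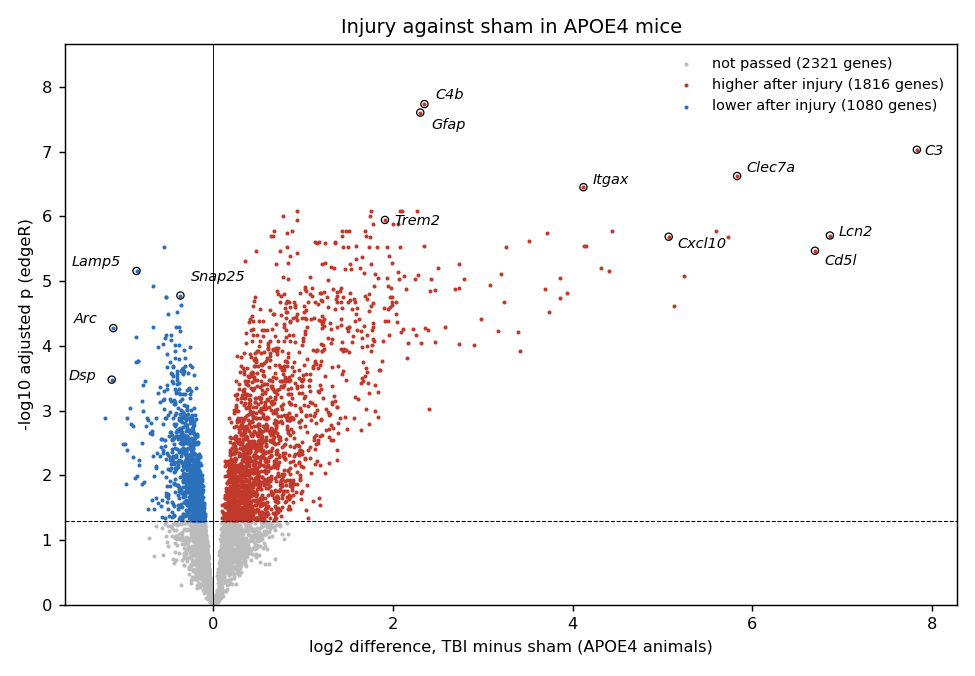
Each point is 1 of the 5217 tested genes, with the log2 difference between 8 TBI and 7 sham APOE4 animals on the horizontal axis and the negative log10 of the edgeR adjusted p on the vertical axis. The dashed line marks an adjusted p of 0.05. Rises reach a log2 difference of 7.83 (C3), whereas the deepest fall is -1.20.

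Trem2, the microglial lipid receptor, and Tyrobp, its adaptor, rose in every injured APOE4 animal. Trem2 ran from 43.6 through a median of 71.1 to 128 CPM (counts scaled to a common total of listed-gene counts) in TBI, against 17.8, 19.0 and 22.5 in sham. The lowest injured animal, TBI 4, was at nearly 2 times the highest sham, so the groups did not overlap. The log2 difference was 1.91 ± 0.17 (SE), a 3.76-fold rise (edgeR adjusted p = 1.14e-06). Tyrobp ran from 50.6 (median 64.9) to 182 CPM in TBI and from 18.1 (19.4) to 24.8 in sham, again without overlap (1.83 ± 0.22, edgeR adjusted p = 9.10e-06). TBI 6 and TBI 7, both titled F, were highest for both genes. Without these 2 animals the differences were 1.68 and 1.49, within deep libraries 1.77 and 1.58, and within shallow libraries 2.03 and 2.09. In GRCm38.p6 the Trem2 locus (NCBI gene 83433) spans bases 48346401 to 48352276 of chromosome 17. The Tyrobp locus (NCBI gene 22177) spans 30413782 to 30417582 of chromosome 7.

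**Figure D2:**
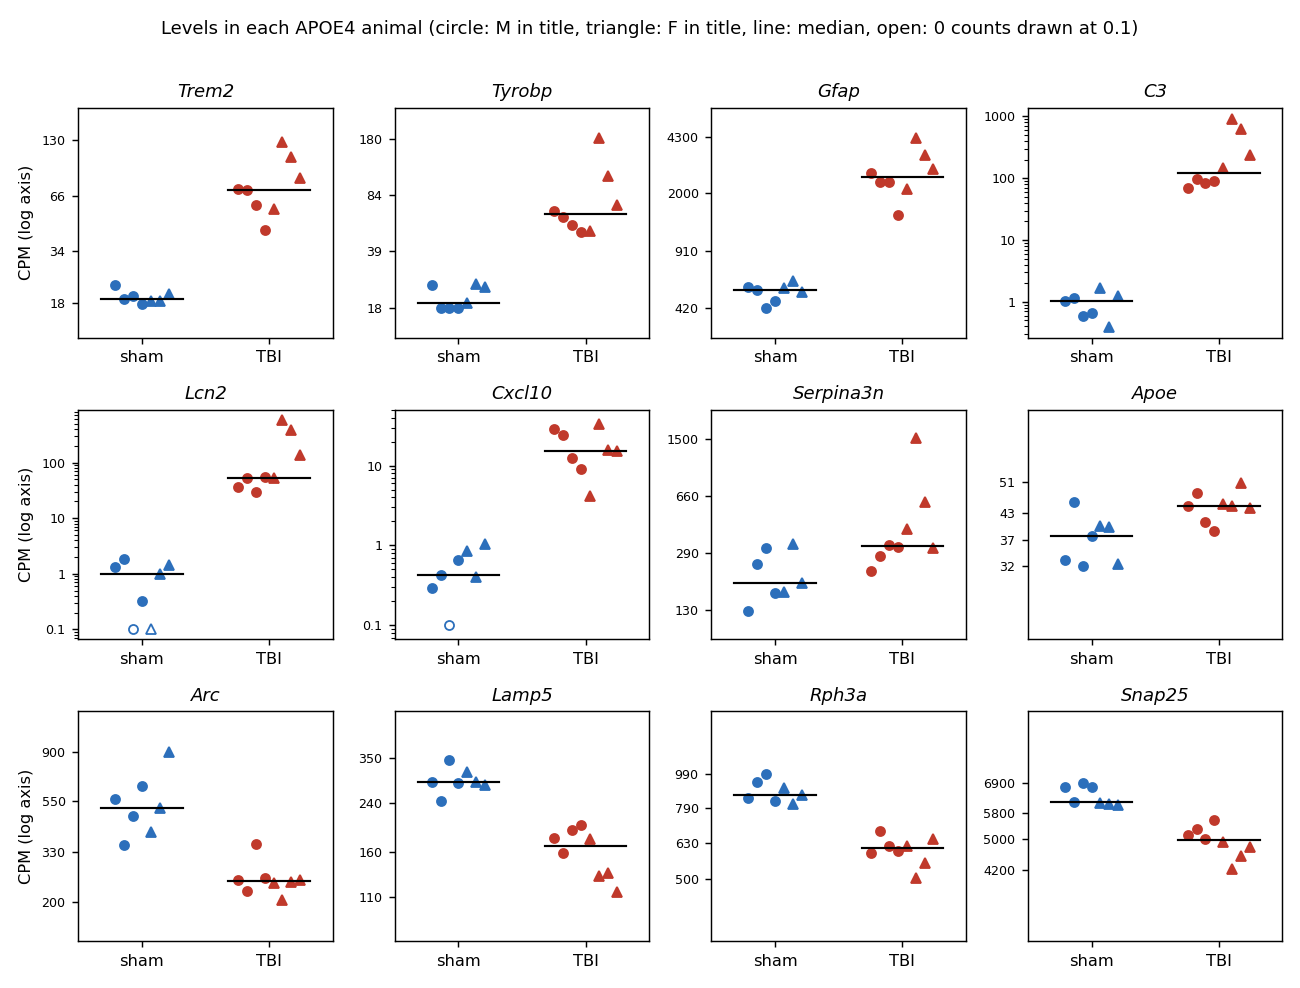
CPM over the listed genes on log axes in each APOE4 animal for 12 genes, with sham at left and TBI at right, circles for title letter M, triangles for F, and a line at the median. Trem2, Tyrobp, Gfap, C3, Lcn2 and Cxcl10 show no overlap between groups, Lamp5, Rph3a and Snap25 lie wholly lower after TBI, and Serpina3n, Apoe and Arc overlap.

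The signalling genes that accompany this receptor moved together. Each of the 14 tested genes listed for Trem2-Tyrobp signalling rose (median 1.27 on the log2 scale, against 0.08 over all tested genes). Both genes stand in the study's own title, so the list is not independent evidence of its direction. Clec7a, a receptor for fungal and other glucans that marks activated microglia, was at 0 to 1.19 CPM in sham and at 18.7 to 100 in TBI (median 23.5), a log2 difference of 5.83 ± 0.45 (edgeR adjusted p = 2.39e-07). The tyrosine kinases Syk (0.97), Btk (1.39) and Lyn (1.06) and the phospholipase Plcg2 (0.93), which act downstream of such receptors, also rose.

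Disease-associated microglia genes, a programme first described around amyloid plaques in mice, rose in 27 of 29 tested cases with a median of 1.44. Only Hif1a (0.09) and Ank (-0.07) did not pass. Gpnmb, a membrane glycoprotein of phagocytes, went from 4.84 to 10.7 CPM in sham (median 8.0) to 55.2 to 697 in TBI (median 117), and the groups did not overlap. Its log2 difference was 4.43 ± 0.42 (edgeR adjusted p = 1.67e-06). Larger rises were found for Cst7, a cathepsin inhibitor (5.24 ± 0.62), and close ones for the lectin Lgals3 (4.31 ± 0.50) and the integrin Itgax (4.12 ± 0.33).

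Homeostatic microglia genes did not fall as that programme rose. Of 20 tested, 19 were higher (median 0.78), and the fall was in Mef2c (-0.28), a transcription factor that neurons express as well. Markers used to define resting microglia rose by less than the list's leading genes, with P2ry12 at 0.26 ± 0.08 and Tmem119 at 0.66 ± 0.09, beside Cx3cr1 at 0.94 and Csf1r at 0.93. Lag3, an immune receptor, rose most (2.08 ± 0.18), and its 39.9 to 78.4 CPM in TBI lay above the 8.88 to 22.4 in sham. In bulk tissue more cells of a type and more RNA per cell cannot be told apart, nor can fewer cells and less RNA.

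Genes of digestion and uptake followed. Lysosomal genes rose in 25 of 29 cases (median 0.79). Ctsd, the main lysosomal aspartyl protease, ran from 1328 to 4778 CPM in TBI and from 666 to 779 in sham (1.52 ± 0.20, edgeR adjusted p = 1.98e-05). Cd68, a lysosomal membrane protein of phagocytes, rose by 2.05 and Ctss, a cysteine protease, by 1.74, whereas the lysosomal regulator Tfeb (0.18), the cholesterol carrier Npc1 (0.12) and the calcium channel Mcoln1 (-0.04) were among the 4 that did not pass. All 13 tested Fc gamma receptor and phagocyte oxidase genes rose (median 1.78). Cybb, the catalytic subunit of the superoxide-producing oxidase, reached 5.18 to 42.8 CPM against 0.329 to 1.46 in sham (4.12 ± 0.43), and its cytosolic partner Ncf4 rose by 1.93.

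Complement C3 had the largest rise of the comparison. C3, the protein on which all complement routes converge, stood at 0.397 to 1.68 CPM in the 7 shams (median 1.03) and at 68.8 to 907 in the 8 TBI animals (median 121). TBI 6 (907), TBI 7 (634) and TBI 8 (235) were highest, and the 4 animals titled M all lay below 100. The log2 difference was 7.83 ± 0.55 (edgeR adjusted p = 9.38e-08), and 6.94 without TBI 6 and TBI 7. C3 (NCBI gene 12266) lies on chromosome 17 from 57203967 to 57228136 (GRCm38.p6). C4b, which feeds the classical route, had the smallest adjusted p (1.85e-08, edgeR) at 2.35 ± 0.14, with 239 to 546 CPM in TBI and 55.9 to 91.7 in sham, although reads may not separate it from its close copy C4a (0.80). All 17 tested complement genes rose (median 1.63), from the C1q chains (C1qa at 2.0, C1qb at 1.75, C1qc at 1.78) through the anaphylatoxin receptor C3ar1 (2.27 ± 0.27) to the inhibitor Serping1 (1.55).

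The interferon response rose in all 45 tested genes, with a median of 1.33. These genes are switched on by interferons, partly through a promoter element bound by interferon regulatory factors. Cxcl10, a chemokine for T cells, was at 0 to 1.04 CPM in sham (median 0.428) and at 4.20 to 33.4 in TBI (median 15.5). TBI 6 (33.4), TBI 1 (28.5) and TBI 2 (24.5) were highest and TBI 5 lowest, so the order differed from that of C3. The log2 difference was 5.07 ± 0.51 (edgeR adjusted p = 2.07e-06). Mx1, an antiviral GTPase, rose by 2.98 ± 0.42, Gbp6, a guanylate-binding protein, by 2.09, and Stat2, a transcription factor of interferon signalling, by 0.23. A further 7 listed members had too few counts to test, at 64 to 147 counts over all TBI animals and 3 to 32 over all shams.

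A short sequence was found in part of these genes' promoters. The core of the interferon-stimulated response element, GAAA followed by 2 bases of any kind and another GAAA, was searched on both strands in 300 bases around each gene start (250 before to 50 after, RefSeq, GRCm38.p6). It occurred for 20 of the 33 interferon members with a promoter window (60.6%), while 12 of the 45 tested members had no window, against 3.99% of 27025 genes and 4.52% of 4097 genes of the authors' list with a window. A match is a description of letters and not evidence of binding. The windows of 3 members are shown, those with the largest log2 rises among the members with a match. In them the motif lies at bases -213 (Cxcl10, chr5:92348840-92349139, minus strand), -59 (Gbp2, chr3:142620413-142620712, plus strand) and -130 (Bst2, chr8:71537423-71537722, minus strand) from the start. Capitals mark the motif, which in Gbp2 is on the other strand and in Bst2 is a pair of matches sharing 4 bases. Gbp2 is a guanylate-binding protein and Bst2 a membrane protein that tethers viruses, and both rose by 1.99 on the log2 scale.
Cxcl10: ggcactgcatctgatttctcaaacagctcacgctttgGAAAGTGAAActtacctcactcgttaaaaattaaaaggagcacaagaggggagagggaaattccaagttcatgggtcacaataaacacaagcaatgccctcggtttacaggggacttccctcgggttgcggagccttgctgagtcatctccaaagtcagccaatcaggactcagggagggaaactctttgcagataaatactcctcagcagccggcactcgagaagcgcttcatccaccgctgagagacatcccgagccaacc
Gbp2: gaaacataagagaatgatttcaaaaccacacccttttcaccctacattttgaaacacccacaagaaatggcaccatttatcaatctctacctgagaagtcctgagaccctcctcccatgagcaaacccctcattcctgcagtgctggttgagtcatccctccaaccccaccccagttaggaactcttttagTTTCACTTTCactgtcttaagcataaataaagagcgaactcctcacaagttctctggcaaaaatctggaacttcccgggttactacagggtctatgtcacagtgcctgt
Bst2: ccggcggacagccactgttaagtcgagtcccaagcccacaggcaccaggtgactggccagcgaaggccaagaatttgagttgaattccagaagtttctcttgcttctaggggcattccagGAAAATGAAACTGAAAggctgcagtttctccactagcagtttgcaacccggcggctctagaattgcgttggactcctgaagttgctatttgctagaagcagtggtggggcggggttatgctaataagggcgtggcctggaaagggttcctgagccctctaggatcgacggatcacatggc

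Antigen presentation rose as well. All 7 tested MHC class II genes rose (median 2.15). H2-Aa, a class II chain, went from 2.96 to 4.21 CPM in sham to 10.8 to 58.6 in TBI (2.74 ± 0.34), and Cd74, the chaperone of class II, rose by 2.43 ± 0.29. In MHC class I presentation 15 of 17 genes rose (median 0.66), and Psme1 (0.23) and H2-T22 (0.16) did not pass. The heavy chains H2-D1 (1.74) and H2-K1 (1.65) led with the immunoproteasome subunit Psmb8 (1.60) and the transactivator Nlrc5 (1.80 ± 0.37). The 2 heavy chains are similar in sequence and may share reads.

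Chemokine and cytokine genes were often too scarce to test. Of 12 tested 10 rose (median 1.36), Il18 stood at 0.15 without passing, and Cx3cl1, a chemokine made by neurons, fell by 0.32. Cxcl5, a neutrophil attractant, rose by 5.13 ± 0.69, from 0.209 to 0.998 CPM in sham to 3.45 to 80.2 in TBI, a wide range over the injured animals. Spp1, osteopontin, rose by 2.46 ± 0.38. A further 14 members were below the count filter, and 13 of them had more counts per total in TBI. That share is not particular to this list, since all 7 such members of the interferon response and all 6 of the border macrophages did so too. The share over all genes under the filter was not counted. In the list of Toll-like receptors and NF-kB 24 of 27 genes rose (median 0.81). Tlr2, which senses bacterial lipoproteins, rose by 2.74 ± 0.31 and the NF-kB cofactor Bcl3 by 2.57 ± 0.38, while Tirap (0.40), Irak3 (0.27) and Relb (0.23) did not pass.

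Genes of border and infiltrating macrophages rose in 6 of 7 tested cases (median 0.91), and Vcan (0.23), a proteoglycan also made by oligodendrocyte precursors, did not pass. Cd5l, a scavenger protein of tissue macrophages, had 344 counts over the TBI animals and 2 over the shams, with 5 shams at 0. Its ratio per column total was 156 (95% exact interval 42.8 to 1291, counting error only). Ms4a7, a macrophage surface protein, rose by 3.17 ± 0.47, and Mrc1, the mannose receptor, by 0.91 ± 0.24, where 6 of 8 TBI animals exceeded the highest sham. Of other blood cells few genes could be tested. Igkc, the immunoglobulin kappa constant region of B cells, rose by 3.39 ± 0.51 and Csf3r, the G-CSF receptor of neutrophils, by 1.75 ± 0.20. Trbc2, a constant region of the T cell receptor, fell by 0.92 ± 0.19, at 2.45 to 5.17 CPM in TBI against 4.85 to 9.91 in sham, while Lck stood at 0.48 without passing. No listed red blood cell or choroid plexus gene is in the authors' table (0 of each).

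Astrocyte genes rose as well. Gfap, the intermediate filament of astrocytes, ran from 1483 through 2486 to 4255 CPM in TBI and from 421 through 533 to 607 in sham. The lowest injured animal (TBI 4) was well above the highest sham, and the rise was 4.94-fold (2.30 ± 0.15, edgeR adjusted p = 2.51e-08). Gfap (NCBI gene 14580) lies on chromosome 11 from 102887336 to 102897200 (GRCm38.p6). Lcn2, which binds bacterial iron carriers and is released by reactive astrocytes, rose from 0 to 1.85 CPM in sham to 29.9 to 591 in TBI (median 53.7). Its log2 difference was 6.86 ± 0.69 (edgeR adjusted p = 1.98e-06), and 5.79 without TBI 6 and TBI 7. Of 34 reactive astrocyte genes 32 rose (median 1.58), with Tgm1, a transglutaminase (5.72), and Steap4, a metalloreductase (5.59), next in size, and Nes (0.24) and Ptgs2 (-0.47) did not pass.

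Homeostatic astrocyte genes rose by less, in 19 of 20 cases with a median of 0.32, and the glutamate transporter Slc1a2 (0.16) did not pass. The water channel Aqp4 rose by 0.91 ± 0.12 and the membrane protein Mlc1 by 0.66 ± 0.07, for which 447 to 697 CPM in TBI lay above 344 to 368 in sham. Heme and iron genes rose in 10 of 11 cases (median 0.90), among them the heme oxygenase Hmox1 (1.21) and the phagosomal metal transporter Slc11a1 (2.10 ± 0.18), and the transferrin receptor Tfrc fell by 0.46.

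Extracellular matrix and scar genes rose in 27 of 31 cases (median 0.60). Timp1, an inhibitor of matrix proteases, rose by 3.42 ± 0.55, Mmp19, such a protease, by 1.71, and the fibrillar collagen Col3a1 by 1.32 ± 0.26. The groups overlapped for Col3a1, at 16.1 to 59.1 CPM in TBI and 8.22 to 20.4 in sham. Within deep libraries 13 of the 31 rose, beside 748 of 5308 over all genes. Within shallow ones 7 rose, beside 699 of 5120. In 2 of the 31 genes all TBI animals lay above every sham, no larger a share than the 10% over all genes, while 23 of the 34 reactive astrocyte genes did so. Acan, the proteoglycan of perineuronal nets, fell by 0.66.

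Lipid genes split between export and synthesis. Abca1, which exports cholesterol to apolipoproteins, went from 65.1 to 101 CPM in sham to 197 to 564 in TBI (1.69 ± 0.16, edgeR adjusted p = 1.67e-06), and Apoc1, another apolipoprotein, rose by 2.50 ± 0.29. The lipid droplet protein Plin2 rose by 1.10 ± 0.22. Of 20 genes of lipid transport and efflux 16 rose (median 0.48), Cyp27a1 (0.53), Nr1h2 (-0.08) and Scarb1 (-0.14) did not pass, and 1 gene fell. Counts in the mouse Apoe row ran from 38.9 to 50.6 CPM in TBI (median 44.6) and from 32.0 to 45.5 in sham (median 37.8), an overlapping and small rise of 0.25 ± 0.09 (edgeR adjusted p = 0.0239). That call was lost with DESeq2 (0.21, adjusted p = 0.0505) and, with edgeR, without sham 1, sham 3, sham 7 or TBI 7 (highest adjusted p = 0.0729), and without both TBI 6 and TBI 7 (0.19, adjusted p = 0.0965). With E2073 as sham the difference turned to -0.011 (edgeR adjusted p = 0.952). These mice carry human APOE, and how many of its reads this row counts was not tested.

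Cholesterol synthesis fell. Of 22 tested genes 16 were lower and 0 higher (median -0.31), against 20.7% lower over all genes. Hmgcs1, an early enzyme of the pathway, ran from 380 to 557 CPM in TBI (median 488) and from 532 to 729 in sham (median 667), with 7 of 8 TBI animals below every sham (-0.42 ± 0.07, edgeR adjusted p = 1.19e-04). The sterol demethylase Cyp51 (-0.43) and the isomerase Idi1 (-0.68 ± 0.16) fell, as did Srebf2 (-0.31), the transcription factor that drives the pathway. Ebp, Dhcr7, Pmvk, Nsdhl, Acat2 and Tm7sf2 stood at -0.13 to -0.04 without passing. With column totals alone 15 of the 22 fell.

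**Figure D3:**
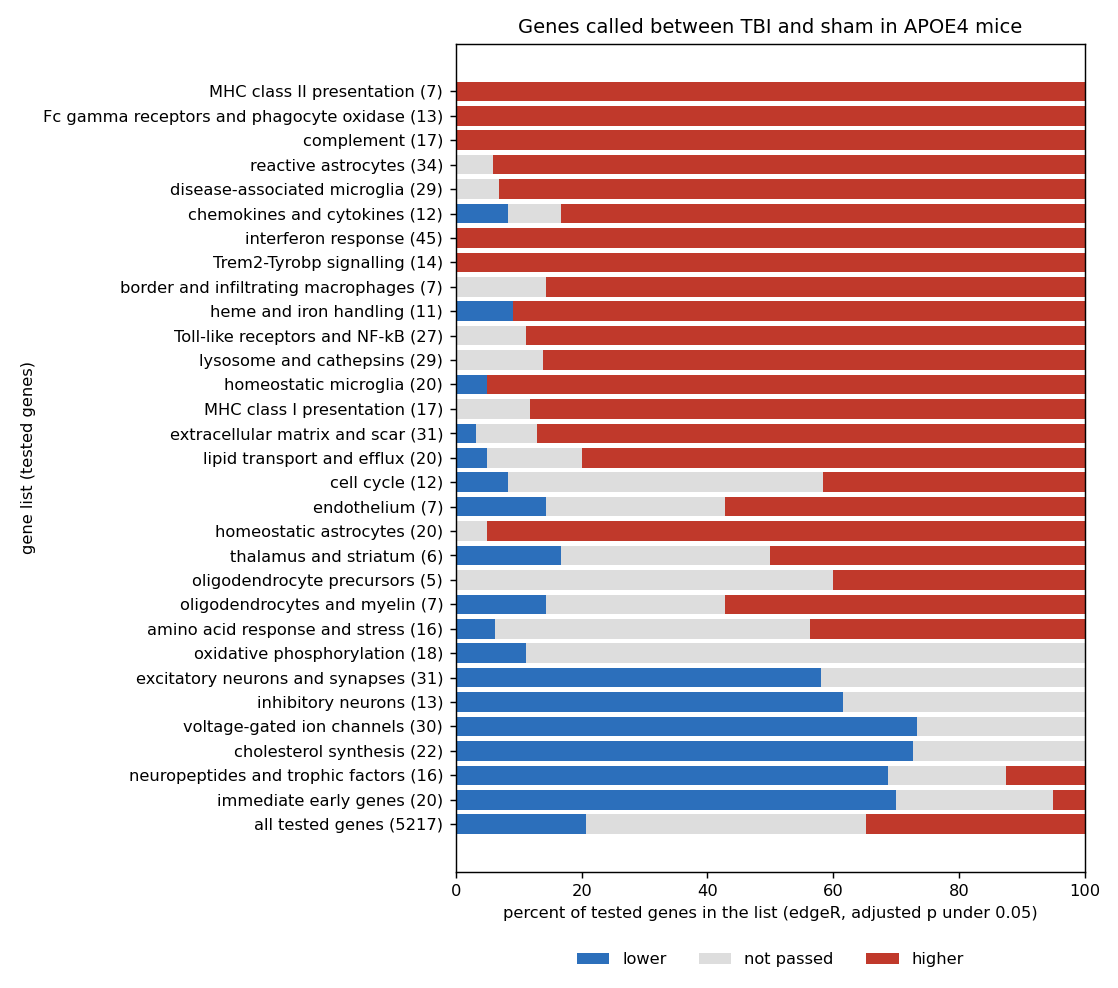
Horizontal bars give the percent of tested genes in each list that were lower (blue), not passed (grey) or higher (red) after TBI in APOE4 mice, ordered by the list's median log2 difference, with all 5217 tested genes in the bottom bar. All tested genes of complement, interferon response, MHC class II, Fc receptors and Trem2-Tyrobp signalling were higher, while cholesterol synthesis and voltage-gated ion channels had 0 higher.

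Immediate early genes, which neurons switch on within minutes of firing, showed the deepest median fall among the lists with at least 5 tested genes (-0.61). Of 20 tested 14 fell, and Jun rose (0.34). Arc, a regulator of synaptic strength, ran from 203 to 357 CPM in TBI (median 246) and from 353 to 897 in sham (median 510). Only TBI 3, at 357, reached the sham range. The log2 difference was -1.11 ± 0.16, a 2.16-fold fall (edgeR adjusted p = 5.33e-05). The transcription factors Npas4 (-0.89 ± 0.23), Egr1 (-0.86 ± 0.14) and Nr4a1 (-0.84 ± 0.14) fell, and Bdnf, a trophic factor, fell by 0.56. Fos (-0.45), Egr2 (-0.64), Egr4 (-0.50), Ier2 (-0.33) and Per1 (-0.23) did not pass. Within deep libraries 6 of the 20 fell, beside 241 of 5308 over all genes. Within shallow ones 12 fell, beside 513 of 5120. Arc (NCBI gene 11838) lies on chromosome 15 from 74669081 to 74672570 (GRCm38.p6).

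Part of the synaptic genes fell, by small amounts. Snap25, a fusion protein of synaptic vesicles, ran from 4227 to 5586 CPM in TBI (median 4981) and from 6078 to 6875 in sham (median 6182). The groups did not overlap although the fall was only 1.29-fold (-0.36 ± 0.05, edgeR adjusted p = 1.67e-05). Of 31 genes of excitatory neurons and synapses 18 fell and 0 rose (median -0.23). Lamp5, a membrane protein of subsets of cortical neurons, fell by 0.85 ± 0.10, from 245 to 345 CPM in sham to 114 to 200 in TBI, and Rph3a, a vesicle protein, by 0.55 ± 0.06, with all 8 TBI animals below every sham for each. Homer1, a postsynaptic scaffold, fell by 0.61. The vesicle proteins Syp (-0.08), Syn1 (-0.11) and Sv2a (-0.06) and the glutamate transporter Slc17a7 (-0.13) were among the 13 that did not pass. Counts of falls moved with scaling, to 13 of 31 with column totals and 25 with DESeq2, with 0 rises in each.

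Inhibitory neuron genes fell in 8 of 13 cases (median -0.24). Gabrd, a GABA receptor subunit found outside synapses, was at 51.3 to 74.3 CPM in TBI and 74.6 to 106 in sham (-0.52 ± 0.08), and the interneuron genes Npy (-0.56 ± 0.11) and Pvalb (-0.46 ± 0.12) fell. Syt2, a fast calcium sensor, stood at -0.44 ± 0.32 without passing, at 19.4 to 141 CPM in TBI. Of 30 voltage-gated ion channel genes 22 fell (median -0.30), led by the sodium channel subunit Scn4b (-0.87 ± 0.26) and the potassium channel Kcnh7 (-0.74 ± 0.16). The Scn4b fall was not shared by TBI 8, with 914 counts of a column total of 4648345, against 730 of 4858861 in sham 7. The other TBI animals held 155 to 419 Scn4b counts. In the list of neuropeptides and trophic factors 11 of 16 fell (median -0.39), such as the activity-dependent pentraxin Nptx2 (-0.60 ± 0.16) and the neuropeptide Cort (-0.79 ± 0.25), and Igf2 (0.71) and Igf1 (0.37), growth factors that other cells also make, rose. Within deep libraries 1 of these 16 fell, beside 241 of 5308 over all genes. Within shallow ones 8 fell, beside 513 of 5120.

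Outside these lists further genes fell deeply. Mylk3, a myosin light chain kinase, ran from 1.08 to 4.36 CPM in TBI and from 3.85 to 11.7 in sham (-1.20 ± 0.26), and Dsp, a protein of desmosomes that dentate granule cells express, from 8.63 to 36.8 and from 35.2 to 53.9 (-1.13 ± 0.20). The cytokine subunit Il12a fell by 1.01 ± 0.24, the keratin Krt80 by 0.97, the Wnt pathway agonist Rspo1 by 0.96, the adhesion receptor Adgrd1 by 0.96, the protease inhibitor Serpinb8 by 0.92 and Cdr1 by 0.98. In each of these 8 genes at least 1 TBI animal overlapped the shams. The lipid-binding protein Osbpl3 (-0.67 ± 0.08) and the phosphatase Pdp1 (-0.53 ± 0.07), which activates pyruvate dehydrogenase, fell with all 8 TBI animals below every sham.

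Genes of oxidative phosphorylation stayed near the threshold. Of 18 tested only Cox5a (-0.18 ± 0.06) and Ndufs1 (-0.11) passed, both lower, and the median was -0.08. The call of Cox5a was lost without TBI 3 or sham 6 (highest edgeR adjusted p = 0.0745). With column totals alone 0 of the 18 passed, with DESeq2 12 were lower, and leaving out 1 animal gave 0 to 7, so no direction is given for this list.

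Markers of other cells and regions were few. Among myelin genes 4 of 7 rose, such as Gsn (0.48) and Trf (0.53), Mal fell (-0.23), and Fa2h (-0.08) and Opalin (-0.16) did not pass. Of 5 precursor genes Ptprz1 (0.27) and Bcas1 (0.19) rose. In endothelium the adhesion molecules Icam1 (1.95) and Vcam1 (0.85) and the junction proteins Cldn5 (0.34) and Cdh5 (0.24) rose and Cd34 (-0.36) fell. Foxj1, the master regulator of motile cilia in ependymal cells, rose by 1.25 ± 0.26, and 3 of 8 TBI animals exceeded the highest sham. Of 6 thalamus and striatum markers Prkcd (1.09 ± 0.14), Synpo2 (0.59) and Plekhg1 (0.41) rose and Ramp3 (-0.54) fell, with sham 2 highest for Prkcd among shams. The median log2 difference of these 6 from the sham mean was 0.94 in TBI 8. The other TBI animals ran from 0.08 to 0.38, and sham 2 stood at 0.38. The part of subcortical tissue in any result was not tested. Of 12 cell cycle genes 5 rose (41.7%, against 34.8% over all genes, a similar share), with Top2a, a topoisomerase of dividing cells, at 1.09 ± 0.32, and Cdkn1a, a cell cycle inhibitor, fell by 0.46. In the amino acid and stress response 7 of 16 rose (43.8%, also near the share over all genes, with a median of 0.16), led by Atf3 (1.80 ± 0.33), and Atf4 fell by 0.20.

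The injured animals differed more among themselves than the shams did. The median SD of log2 CPM was 0.21 over the 8 TBI animals and 0.14 over the 7 shams, and it was wider in TBI in 4053 of 5217 genes (77.7%). Over the 351 genes that rose at least 2-fold, the median log2 difference of each animal from the sham mean was lowest in TBI 4 (1.01) and highest in TBI 6 (2.40), followed by TBI 7 (1.98). TBI 6 was highest in 18 of the 23 lists of at least 5 tested genes with a positive median, and TBI 8 in the other 5. TBI 4 was lowest in 17 of them. TBI 4 is a deep library titled M and TBI 6 a shallow one titled F. In 17 of those 23 lists, and in 3 of the 7 with a negative median, the list medians of TBI and sham animals did not overlap.

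**Figure D4:**
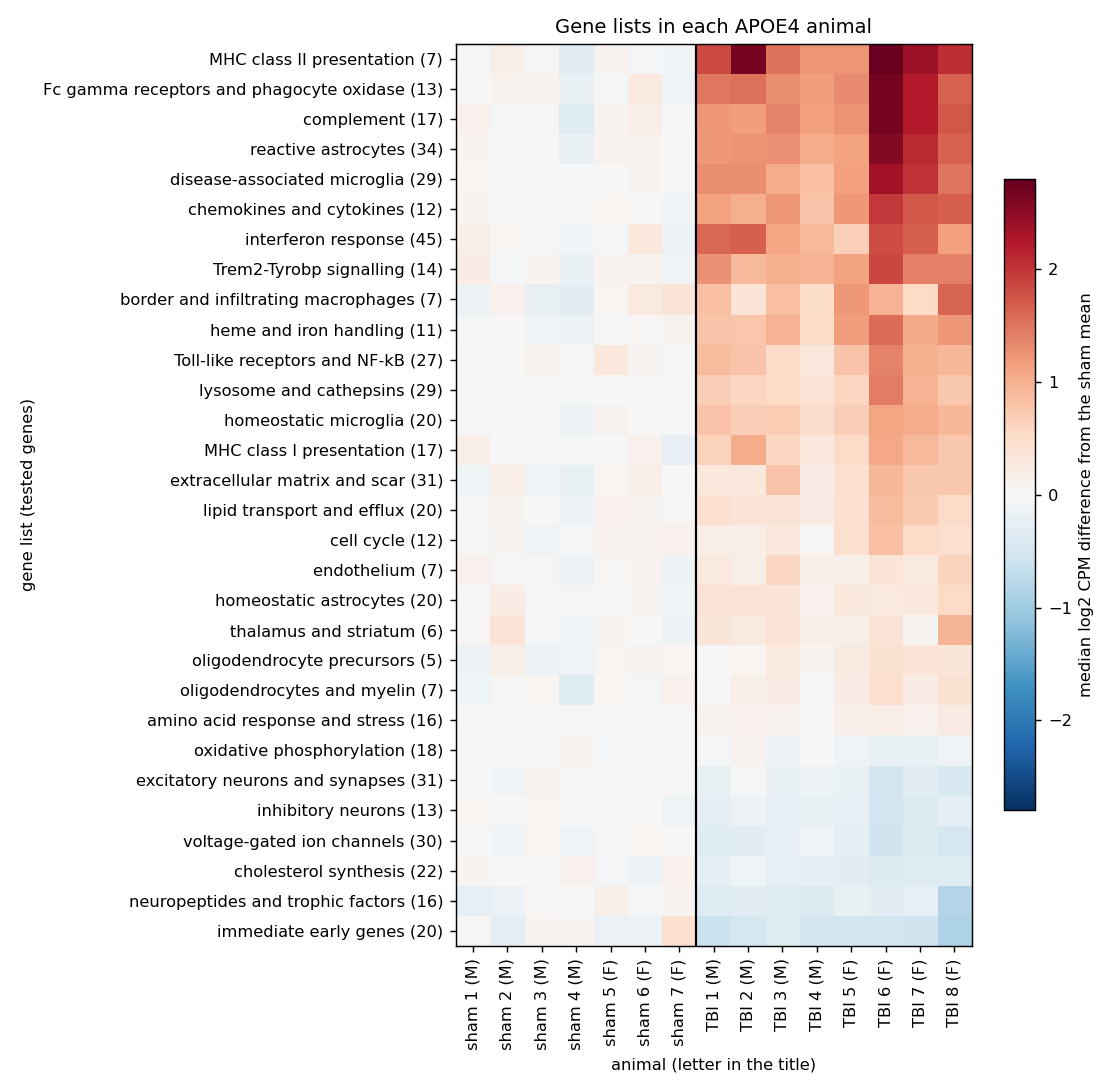
Colour gives the median log2 CPM difference from the mean of the shams over the tested genes of each list (vertical axis, number of genes in brackets) in each animal (horizontal axis, title letter in brackets), red for higher and blue for lower. The black line separates 7 shams from 8 TBI animals. The column of TBI 6 is the darkest red in most rising lists, and TBI 4 is pale throughout.

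Among the 8 injured animals, levels of Tyrobp were set against 6 other genes (log2 CPM, exact permutation of pairings, 2-sided, adjusted over the 6 pairs). By rank, Gfap followed Tyrobp most closely (Spearman rho = 1.00). Its Pearson r was 0.907 (adjusted p = 0.000149), where the raw p of 2.48e-05 is the smallest that the pairings can give. Without TBI 6 and TBI 7, the 2 animals farthest from the median of Tyrobp, r was 0.830, and it was 0.869 within M and 0.991 within F titles (4 animals each). Lcn2 (r = 0.910, adjusted p = 0.00734, rho = 0.643) and C3 (0.894, adjusted p = 0.00796, rho = 0.643) correlated with Tyrobp over all 8, but without the 2 animals r fell to 0.464 and 0.299, and within M titles it was -0.228 and -0.514. Within F titles, which hold TBI 6 and TBI 7, r was 0.967 for Lcn2 and 0.973 for C3. These relations rest on TBI 6 and TBI 7. Snap25 went the other way (r = -0.884, adjusted p = 0.00734, rho = -0.786). Its r also weakened, to -0.468, without the 2, and was -0.536 within M and -0.994 within F titles. Cxcl10 (0.624, adjusted p = 0.123, rho = 0.786) and Arc (-0.548, adjusted p = 0.167, rho = -0.5) did not pass.

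**Figure D5:**
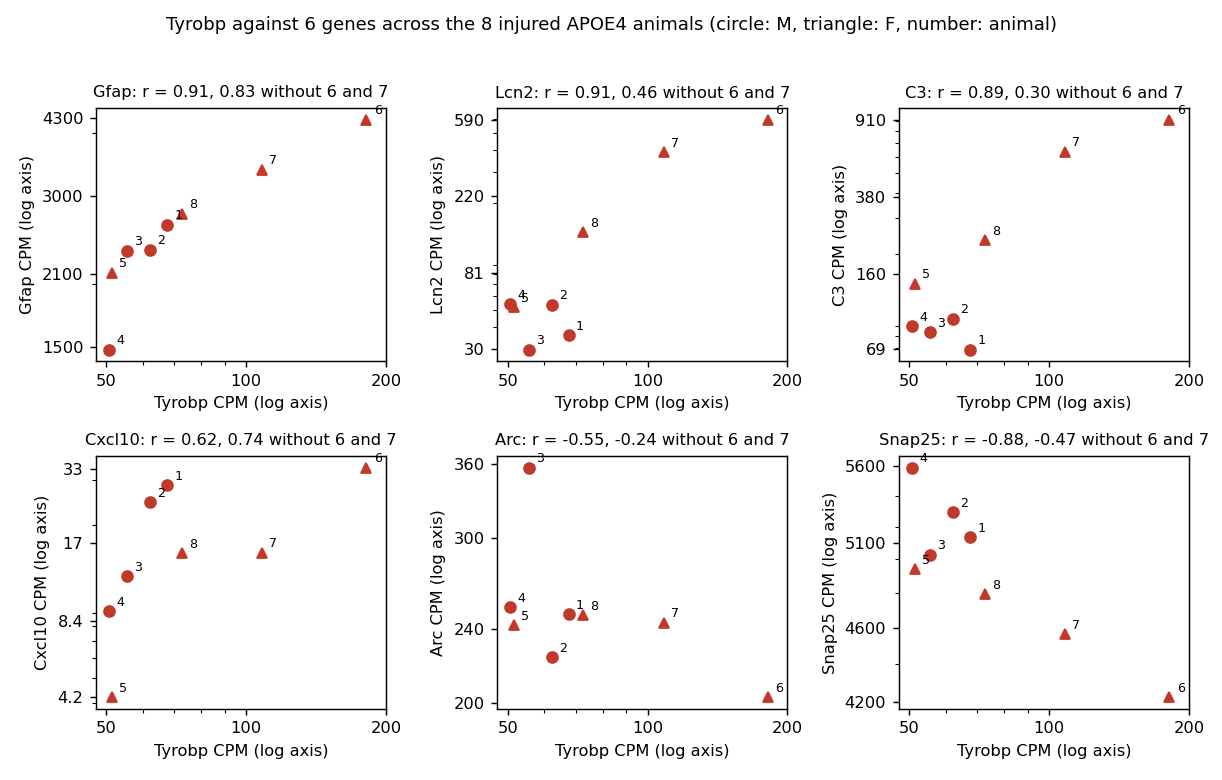
Each panel sets CPM of Tyrobp (horizontal, log axis) against CPM of another gene (vertical, log axis) in the 8 injured APOE4 animals, numbered, with circles for title letter M and triangles for F. Gfap climbs with Tyrobp through all animals, whereas for Lcn2 and C3 the animals other than 6, 7 and 8 form no line.

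Injury was then compared between animals titled F and M. In animals titled F 2330 genes passed (44.7%), 1464 higher (28.1%) and 866 lower (16.6%), and in animals titled M 752 (14.4%), 644 higher (12.3%) and 108 lower (2.07%), from a fit with a common spread. Over the 351 genes above, the median log2 difference was 1.77 with F and 1.24 with M, larger with F in 308. Without TBI 6 the medians were 1.54 and 1.24 over 335 genes (262 larger with F). Without TBI 7 they were 1.70 and 1.23 over 321 genes (276 larger with F), and leaving out both was not tried here. The 351 genes were chosen for rises in these same animals, so such counts describe them and are no test of the letters. Over all 5217 tested genes the median was 0.06 with F and 0.04 with M. In how many of all genes the difference was larger with F was not counted. Trem2 rose by 2.29 with F and 1.61 with M, C3 by 8.89 and 6.47, and Cxcl10 by 4.47 and 5.60. The difference between the letters, tested directly, passed in 0 of 5217 genes with edgeR (383 at an unadjusted p under 0.05, 7.34%), and in 0 with DESeq2 or limma-voom. The smallest p belonged to Ier5, an immediate early gene (F minus M -0.76 ± 0.16), and Ikbke, a kinase of innate immune signalling (2.57 ± 0.55), each with an edgeR adjusted p = 0.640, followed by Arntl (-0.41), a clock transcription factor, the hyaluronan receptor Cd44 (1.79 ± 0.44), Tmem86a (0.61) and the metallothionein Mt2 (0.85 ± 0.22), each at 0.672. Without TBI 5, the F animal with the smallest median rise over the 351 genes, 3 genes passed, the chitinase-like Chil1 (3.02, adjusted p = 0.0168), Ier5 (-0.88, adjusted p = 0.0168) and Mt2 (1.00, adjusted p = 0.0340). The M count was 420 without sham 3, 437 without TBI 1, 458 without sham 1, 466 without TBI 3 and 1143 without TBI 4, and the F count 1525 without sham 6.

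Injury in APOE4 animals was last set against injury in the APOE3 animals, 8 TBI and 7 sham mice of the same design with human APOE3. There 3690 of 5257 genes passed (70.2%), 1881 higher (35.8%) and 1809 lower (34.4%). The difference between the injury effects passed in 0 of 5371 genes with edgeR (99 at an unadjusted p under 0.05, 1.84%), and in 0 with DESeq2 or limma-voom. Median log2 differences in APOE4 and APOE3 were 1.27 and 1.22 for Trem2-Tyrobp signalling, 1.58 and 1.75 for reactive astrocytes, -0.61 and -0.79 for immediate early genes and -0.31 and -0.39 for cholesterol synthesis. Because the table was filtered on an injury p-value, genes that respond in 1 genotype alone may be missing from it.

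Serpina3n, a protease inhibitor of reactive astrocytes, had the smallest p of that test. In APOE4 it ran from 227 to 1514 CPM in TBI (median 323) and from 127 to 330 in sham (median 191), and 3 of 8 injured animals lay above every sham. The rise was 0.98 ± 0.32 (edgeR adjusted p = 0.0190), against 2.93 in APOE3, and the difference of -1.93 ± 0.42 did not pass (edgeR adjusted p = 0.397). Without TBI 6, whose level of 1514 was the highest, it was the 1 gene that passed (-2.30 ± 0.32, adjusted p = 2.78e-04). The rise itself was lost without sham 5 or sham 7 (highest adjusted p = 0.0533), and within deep (0.78, adjusted p = 0.0677) or shallow libraries (0.91, adjusted p = 0.249). Serpina3m, a close relative, rose by 1.05 ± 0.33, and Serpina3g by 1.06 ± 0.43, a call that was lost in 10 of the 15 fits that leave out 1 animal. These relatives may share reads, so their separate values are uncertain. The next smallest p values of the test belonged to Lrrc40 (-0.28 ± 0.08), the potassium channel Kcnu1 (0.84 ± 0.26), Serpina3m (-2.07 ± 0.66), Rnr2 (-0.33 ± 0.11) and Rgag1 (0.95 ± 0.31), each with an adjusted p = 0.999.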

How the data were processed

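RNA of the cortex and hippocampus at the injury site was sequenced from 32 mice, and 1 table holds all of them. The values used are read counts per gene, deposited by the authors without normalization, per the file headers. The authors' deposited p-values and log2 coefficients for injury were read only to see how the genes had been chosen. Subread 1.5.0 and edgeR 3.14.0 appear, with build mm10, per the submitters' processing notes. Not given in the sources used here are what each was used for and whether counting used strand. The table lists 5582 genes selected on injury p-values, so column totals are sums over these genes and CPM is scaled to them alone. In addition, 1 column of per-sample values could not be tied to a sample and was not used. Of the gene identifiers 5557 matched RefSeq (GRCm38.p6), and 13 symbols were restored from them.

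Groups came from animal titles and genotype labels. E2073 was left out because its labels disagree, and so was F1372, a sham titled E3 whose genotype label is APOE4. Counts were tested with edgeR 4.0.16 in R 4.3.3 (filterByExpr, TMM scaling, quasi-likelihood F-test, title letter as covariate, Benjamini-Hochberg adjusted p under 0.05). Of 5582 genes 365 were dropped for low counts. The SE is the log2 difference divided by the square root of F, log2 CPM used a prior count of 1, and animals varied by 11.7% (edgeR's biological coefficient of variation). The p-values measure the spread between these animals. Intervals of count ratios cover counting error only. Alternatives used DESeq2 1.42.0, limma 3.58.1 (voom), total-count scaling, no filter, no title letter, a fit over all 30 assigned animals, E2073 as TBI or as sham, F1372 as an APOE4 sham, an adjusted p of 0.01, and each animal left out. On simulated data with the same design, 95.9% of 2-fold and 100% of 4-fold changes were recovered over 5194 genes for injury, and 76% and 95% over 5199 genes for the difference between title letters. For the difference between genotypes, 79.8% of 2-fold and 97.0% of 4-fold changes were recovered over 5335 genes. The simulation changed only a small part of the genes, equally up and down, and gave TBI and sham the same spread. In the real data most tested genes passed and TBI animals varied more, so these rates may not hold for them.

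The members, gene lists and tests were chosen with earlier results of these data known. Genes were named by rule, namely the 10 largest rises and falls, the 5 smallest p in each direction, Trem2, Tyrobp, Apoe and the 6 genes paired with Tyrobp. The rule added up to 4 genes with the largest change in each list, the 6 with the smallest p in each difference test, and the 6 with the widest spread among TBI animals. List members outside this rule, such as those that did not pass, that moved against their list or that serve as further examples, were named after their values were seen. The values of some genes that the rule selects are not reported here.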

Additional observations from a re-analysis of the deposited data

Results flagged for a closer look

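Single animals stood far from the rest of their group in 14 of 306 combinations of a named gene and a group, by Dixon's test at its 95% critical value. Chance alone gives about 1 in 20. Among injured animals the high values were Arc in TBI 3 (357 CPM) and Serpina3m in TBI 6 (73.0 CPM). The low ones were Cort (1.42 CPM) and Inhba (2.23 CPM) in TBI 8, Il12a in TBI 5 (0.350 CPM), Krt80 in TBI 7 (0.554 CPM) and Pdgfrb in TBI 2 (43.5 CPM). Among shams, sham 2 was low for Gabrd (74.6 CPM) and Homer1 (391 CPM) and high for Lhfpl3 (70.4 CPM) and Prkcd (25.2 CPM). Sham 4 was low for Mal (294 CPM) and Itgax (0.0 CPM), and sham 7 for Lrrc40 (98.9 CPM). No cause was tested for these animals.

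The APOE4 library E2073, titled sham and described as TBI, entered no comparison. With scaling over all 32 libraries it lay above every APOE4 sham for Trem2 (38.5 CPM), Tyrobp (38.9 CPM), Gfap (713 CPM), C3 (2.57 CPM) and Cxcl10 (1.10 CPM), and below every APOE4 TBI animal for each of these 5 genes. Its group was not inferred from these values.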

How the results depend on the processing

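Counts of genes called for injury stayed within 1.5 times 2896 with DESeq2, limma-voom, total-count scaling, no filter, no title letter, all 30 animals, E2073 as TBI or as sham and F1372 as an APOE4 sham, with at most 3480 genes (all 30 animals). The count was 1648 at an adjusted p of 0.01. Among alternatives added after seeing the data, it was 989 in deep and 1212 in shallow libraries alone, which hold fewer animals, 2876 with depth in the model and 2390 without TBI 6 and TBI 7. Leaving out 1 animal gave 2394 to 3227 genes for injury, 1525 to 2680 for F titles, 420 to 1143 for M titles, 0 to 3 for the difference between letters and 0 to 1 for the difference between genotypes. Over 156 named genes, 4104 of 4301 values kept their direction and side of the threshold, 163 (61 genes) no longer passed, 33 (10 genes) newly passed and 1 reversed. That was Apoe, at -0.011 with E2073 as sham, and the cause was not tested. No paired analysis was possible because the animal titles share no replicate numbers, and the numbers used here follow accession order. Genes under the count filter were not testable at this depth, and selection of the table on injury limits every count above.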
